A study of Mus musculus with 6 samples.

Results

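The S100 genes encode small proteins with a pair of EF-hand calcium-binding loops. The 10 mouse genes described here, S100a1, S100a4, S100a6, S100a8, S100a9, S100a10, S100a11, S100a13, S100a14 and S100a16, were chosen by symbol, and each matched 1 row of the 31854 rows of a gene count table. The table holds 17 S100 symbols in all. RNA-seq had been performed on 6 libraries of 4T1 cells, a mouse mammary carcinoma line. The control group (genotype WT in the labels) carried the empty pLVX vector, and the LINC01133 group carried pLVX with LINC01133, a human long noncoding RNA. Both groups were grown in DMEM with 10% serum, and each had 3 libraries. The labels do not say whether the vector-bearing cells were single clones, whether 1 parental culture gave rise to both groups, or whether the libraries of a group came from separate cultures. What separates the groups may thus have other sources than LINC01133, and p-values here reflect the spread among these libraries alone, which may be technical. "Rose", "fell", "higher" and "lower" compare the LINC01133 group with the control group.

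S100 proteins mostly act as dimers. On binding calcium they expose a surface that docks onto target proteins such as annexins and myosin, and some are released from cells and bind receptors, among them RAGE and TLR4. S100A4 is known for promoting motility and metastasis in mammary carcinoma and is also used as a marker of fibroblasts and mesenchymal cells. S100A8 and S100A9 form calprotectin, an abundant complex of neutrophils.

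The libraries held 25521469 to 33877549 counts, so that 3 counts correspond to 0.0827 to 0.128 CPM (counts relative to library size, which was scaled by TMM, the trimmed mean of M-values). The groups differed in most expressed genes: with edgeR's quasi-likelihood test and Benjamini-Hochberg adjustment over all 14116 tested genes, 84.9% passed an adjusted p of 0.05, which is what "called" means below, with 44.5% higher and 40.5% lower. Of the 8 epithelial markers examined, 5 were called higher and 3 lower. Among them, Epcam and Cdh1 passed the filter on low counts only through the LINC01133 group, and Krt5 and Krt14 only through the control group. The keratin genes of simple epithelium Krt8, Krt18 and Krt19 rose, Krt18 from 2.06 ± 0.213 to 158.2 ± 4.45 CPM and Krt8 from 145.3 ± 3.82 to 217.0 ± 3.02 CPM, and Krt5, Krt7 and Krt14 fell. Epcam and Cdh1, which define epithelium, had 0 and 4 counts over the control libraries and 78 and 138 over the LINC01133 libraries. The controls thus lacked or nearly lacked these defining markers of epithelium. With LINC01133 the levels of Epcam and Cdh1 were low as well, at 0.794 ± 0.376 and 1.39 ± 0.124 CPM. Of 10 fibroblast and mesenchymal markers, 6 could be tested, 5 fell and 1 rose, and their summed level was 257.3 to 265.3 CPM in the controls and 19.5 to 20.4 CPM with LINC01133.

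The main difference within the family was the loss of most S100a4 transcript, with smaller differences in the other abundant members. S100a4, S100a6, S100a11, S100a1 and S100a13 fell, and S100a8, S100a10 and S100a16 rose. The count of members called, 8 of the 8 that passed the filter on low counts, is close to the 84.9% called among all genes and is not a result about the family. A difference of 2-fold or more was seen in 1 lower member (S100a4) and 2 higher members (S100a8 and S100a16). That is 3 of 8, near the 34.1% of all genes in either direction (13.9% lower and 20.3% higher). This count is not a result about the family either. S100a8 and S100a16 passed the filter only through the LINC01133 group, in which they were high, so their direction in this count is bound to the filter. The median log2 fold change was -0.59 over the 8 tested members and 0.045 over all tested genes. S100a9 and S100a14 did not pass the filter. The groups did not overlap in 7 of the 8 tested members, near the 85.0% without overlap among all tested genes.

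**Figure D1:**
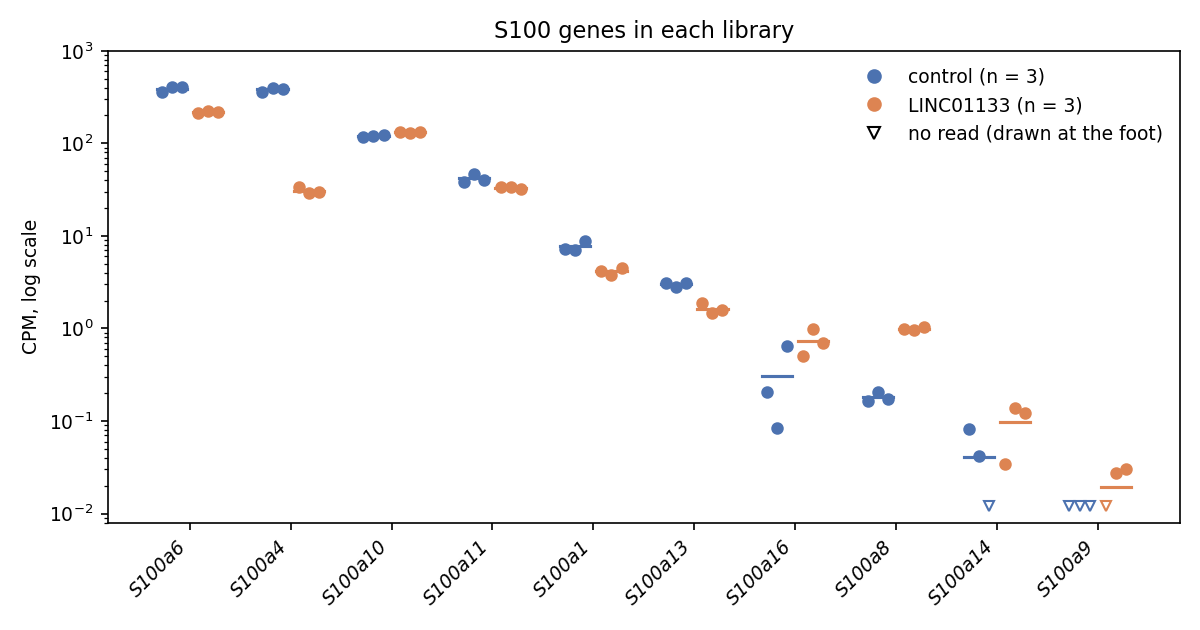
CPM of the 10 S100 genes in each library on a log scale, controls in blue and LINC01133 in orange, with short lines at the group means and open triangles for libraries with no read. S100a4 is the abundant member whose groups stand farthest apart, and the groups overlap for S100a16, S100a14 and S100a9.

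S100a4 (uc008qcz.2; chr3:90603771-90606045 on mm10, plus strand, in GENCODE M21) encodes metastasin, which binds the heavy chain of non-muscle myosin. It stood at 360.3, 397.2 and 390.6 CPM in controls 1, 2 and 3 and at 33.5, 29.1 and 30.1 CPM in LINC01133 libraries 1, 2 and 3. Every LINC01133 library was below every control. The mean went from 382.7 ± 19.7 to 30.9 ± 2.29 CPM (SD, n = 3), which is 12.4-fold lower (log2 fold change -3.64, SE 0.0400, adjusted p = 3.7e-34 by edgeR's quasi-likelihood test). Of all tested genes, 2.93% had a log2 fold change at or below that of S100a4. Its level per kilobase of transcript ranked 20 among the 22697 rows with any count in the controls, and 564 with LINC01133. A predicted gene on the same strand, Gm42674, overlaps S100a4 in the annotation, and reads of the overlap cannot be told apart. In such bulk samples fewer cells expressing a gene and less RNA per cell cannot be told apart either. Among the fibroblast and mesenchymal markers, Pdgfra, Pdgfrb, Col1a1, Twist1 and Prrx1 fell as S100a4 did, and Dcn moved the other way. Pdgfrb, a growth factor receptor of stromal cells, fell from 106.7 ± 2.47 to 0.775 ± 0.251 CPM, and Twist1, a mesenchymal transcription factor, from 24.4 ± 1.73 CPM to no read. Dcn, the gene of the matrix proteoglycan decorin, rose from 1 count over the controls to 409 counts with LINC01133 (4.15 ± 0.586 CPM). Dcn passed the count filter only through the LINC01133 group, and Twist1 and Prrx1 only through the control group. Of the 4 markers that did not pass the filter, Col1a2 had 43 counts over the controls and 3 with LINC01133. With no count filter Col1a2 was called lower (log2 fold change -4.13, adjusted p = 9.7e-09 by edgeR). Lum was at 0 in all libraries, Thy1 had 0 counts in the controls and 4 with LINC01133, and Col3a1 had 0 and 1. Lum, Thy1 and Col3a1 were thus at or near 0 in both groups. The part of the mesenchymal genes in the S100a4 difference was not tested.

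**Figure D2:**
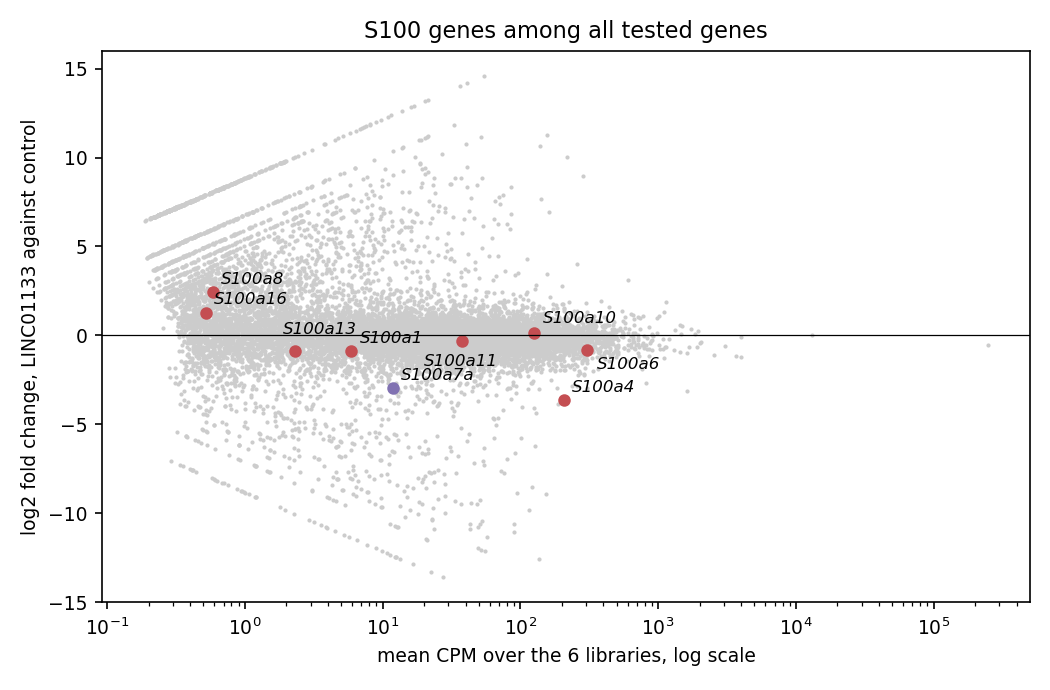
Log2 fold change (LINC01133 against control) against mean CPM over the 6 libraries on a log scale, for all tested genes in grey, the 8 tested members in red and S100a7a in purple. S100a4 lies at -3.64, below the other tested members, which range from -0.89 to 2.43.

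The promoter window of S100a4 (RefSeq, GRCm38.p6, 250 bases before the transcript start to 50 after it; chr3:90603520-90603819, plus strand) is shown because this gene carries the largest fall, beside that of S100a6, the next gene of the family downstream of S100a5, which fell less (chr3:90612644-90612943, plus strand). Capitals mark matches on either strand to TATAAA (the TATA box), TGANTCA (AP-1), CACGTG (E-box) and GGGCGG (GC box).
S100a4: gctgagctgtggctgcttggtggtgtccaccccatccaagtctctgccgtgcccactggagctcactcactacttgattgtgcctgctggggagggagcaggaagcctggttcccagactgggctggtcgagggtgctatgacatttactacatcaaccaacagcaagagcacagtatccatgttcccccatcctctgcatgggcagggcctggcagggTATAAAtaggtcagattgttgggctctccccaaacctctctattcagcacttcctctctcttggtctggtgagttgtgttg
S100a6: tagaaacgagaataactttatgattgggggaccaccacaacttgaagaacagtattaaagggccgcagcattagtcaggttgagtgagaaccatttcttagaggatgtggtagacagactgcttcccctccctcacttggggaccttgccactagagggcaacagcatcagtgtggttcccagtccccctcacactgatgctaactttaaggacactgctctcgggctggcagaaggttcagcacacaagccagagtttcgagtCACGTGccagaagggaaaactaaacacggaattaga
A TATAAA match begins at -31 from the S100a4 start, and CACGTG begins at +15 from the S100a6 start. Among 32851 RefSeq promoter windows of the same length, 13.6% hold TATAAA, 7.15% CACGTG, 7.81% TGANTCA and 35.7% GGGCGG. Of the 10 members 8 had windows in the table. A match describes these letters and is not evidence of binding.

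S100a6 (uc008qdb.1; chr3:90612882-90624181, plus strand), calcyclin, binds the ubiquitin-pathway protein CacyBP. It stood at 355.0, 409.3 and 406.3 CPM in the controls and 211.6, 221.1 and 218.6 CPM with LINC01133. All controls were above all LINC01133 libraries, and control 1 was the lowest control. The mean went from 390.2 ± 30.5 to 217.1 ± 4.92 CPM (adjusted p = 0.00012 by edgeR, log2 fold change -0.84, SE 0.0656). Despite the fall, S100a6 had the highest level per kilobase of the family with LINC01133, at 302.0 ± 6.84 CPM per kb. The ratio of S100a4 to S100a6 in counts per kb needs no scaling between libraries. It was 1.46, 1.40 and 1.39 in the controls, against 0.228, 0.190 and 0.198 with LINC01133, a mean 6.90-fold lower (exact two-sided permutation p = 0.1, the smallest that 3 against 3 libraries allow).

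S100a10 (uc008qfk.1; chr3:93555080-93564643, plus strand) encodes p11, the family member that has lost calcium binding and pairs with annexin A2 at the plasma membrane, where the complex binds plasminogen. It stood at 118.4, 119.8 and 124.3 CPM in the controls and 132.2, 129.5 and 133.6 CPM with LINC01133. The groups did not overlap, but the difference was small, from 120.8 ± 3.08 to 131.7 ± 2.09 CPM (adjusted p = 6.9e-05 by edgeR, log2 fold change 0.12, SE 0.0296). The size of the difference depends on the scaling: it was 0.22 by upper quartile and 0.37 by library size alone, settings that moved the median of all genes by 0.098 and 0.24.

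S100a11 (uc008qfj.1; chr3:93520488-93526287, plus strand), which binds annexin A1, stood at 38.6, 46.6 and 40.5 CPM in the controls and 33.9, 33.7 and 31.9 CPM with LINC01133. The groups were separate, with control 2 the highest library. The mean went from 41.9 ± 4.17 to 33.2 ± 1.08 CPM (adjusted p = 3.1e-09 by edgeR, log2 fold change -0.34, SE 0.0515). Scaled by library size alone the difference was -0.09 and was not called (adjusted p = 0.10; range over 16 settings 1.5e-12 to 0.10). A processed pseudogene, S100a11-ps, is annotated on another chromosome, and reads shared with it are uncertain. The RefSeq promoter window of S100a11 (chr3:93520246-93520545, plus strand) is shown because it differs from those of S100a4 and S100a6 in holding 2 TGANTCA and 3 GGGCGG matches beside CACGTG, with the same marking in capitals.
S100a11: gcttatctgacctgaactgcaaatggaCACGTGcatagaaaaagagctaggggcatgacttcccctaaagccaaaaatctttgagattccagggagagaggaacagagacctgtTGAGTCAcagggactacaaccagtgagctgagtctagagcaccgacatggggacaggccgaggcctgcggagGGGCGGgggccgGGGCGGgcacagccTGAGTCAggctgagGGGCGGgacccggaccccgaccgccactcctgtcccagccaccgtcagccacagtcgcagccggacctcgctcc
The TGANTCA matches begin at -136 and -38 from the start. The window holds 15 CpG, against 2 in that of S100a4 and 6 in that of S100a6, and a median of 7 over all windows.

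S100a1 and S100a13 are neighbours in opposite orientation, with 42 bases between their GENCODE spans. S100a1 (uc008qct.1; chr3:90511034-90514392, minus strand), best known in heart muscle for acting on the calcium pump SERCA2, stood at 7.21, 7.04 and 8.88 CPM in the controls and 4.18, 3.78 and 4.50 CPM with LINC01133. All controls were above all LINC01133 libraries (log2 fold change -0.89, SE 0.119, adjusted p = 1.9e-11 by edgeR). S100a13 (uc008qcu.2; chr3:90514435-90524581, plus strand), which takes part in the export of FGF1 and interleukin-1 alpha, stood at 3.07, 2.79 and 3.12 CPM in the controls and 1.87, 1.46 and 1.57 CPM with LINC01133, again without overlap (log2 fold change -0.88, SE 0.184, adjusted p = 7.1e-06 by edgeR). The ratio of S100a1 to S100a13 in counts per kb was 2.99 ± 0.297 in the controls and 2.98 ± 0.366 with LINC01133, a difference smaller than the spread between libraries (exact two-sided permutation p = 1). Whether counting used the strand is not given in the sources used here, so reads close to both starts cannot be assigned with certainty.

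The stretch common to both RefSeq promoter windows (GRCm38.p6, chr3:90514281-90514484, 204 bases, plus strand) is shown because these neighbours fell by similar amounts. Capitals run from the S100a1 start (at their first base, read to the left) to the S100a13 start (at their last base, read to the right), with 104 bases between both RefSeq starts.
S100a1 and S100a13: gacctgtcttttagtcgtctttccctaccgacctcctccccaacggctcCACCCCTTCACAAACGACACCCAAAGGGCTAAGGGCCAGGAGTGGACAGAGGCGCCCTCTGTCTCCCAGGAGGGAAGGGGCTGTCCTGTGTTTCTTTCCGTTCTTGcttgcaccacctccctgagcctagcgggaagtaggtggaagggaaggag
The stretch holds 7 CpG, and none of the 4 motifs above is in the 300-base window of either gene.

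S100a8 (uc008qdd.1; chr3:90668978-90670035, plus strand) rose at a low level. It had 4, 5 and 4 counts in the controls and 29, 35 and 34 counts with LINC01133, or 0.181 ± 0.0238 and 0.993 ± 0.0317 CPM, 5.38-fold higher (log2 fold change 2.43, SE 0.410, adjusted p = 4.5e-08 by edgeR). All LINC01133 libraries were above all controls. S100a9 (uc008qde.2; chr3:90692632-90695721, minus strand), whose protein is the usual partner of S100A8, had 0 counts in the 3 controls and 0, 1 and 1 counts with LINC01133. It was at or under the floor of 3 counts over a group in both, so no fold is given, and with no count filter it was not called (adjusted p = 0.33). The rise of S100a8 was thus measured in libraries that held 2 counts of its usual partner in all. The RefSeq promoter window of S100a8 (chr3:90668821-90669120, plus strand, marked as above) is shown because S100a8 moved opposite to S100a4.
S100a8: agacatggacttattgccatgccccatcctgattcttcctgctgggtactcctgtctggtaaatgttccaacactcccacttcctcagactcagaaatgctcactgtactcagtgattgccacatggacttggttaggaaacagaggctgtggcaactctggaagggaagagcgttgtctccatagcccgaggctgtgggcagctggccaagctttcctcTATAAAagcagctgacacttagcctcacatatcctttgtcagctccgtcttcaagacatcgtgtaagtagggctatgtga
Its TATAAA match begins at -30, close to the place of the match at -31 in the S100a4 window.

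Of 15 neutrophil and myeloid markers, 6 could be tested, 5 rose and 1 fell, or 6 of 6 called beside 84.9% of all genes. Their summed level was 309.8 to 319.5 CPM in the controls and 806.4 to 811.7 CPM with LINC01133. Most of that sum was Lcn2, a secreted siderophore-binding protein that epithelial cells also make (309.9 ± 4.81 and 787.4 ± 2.16 CPM). Elane, the neutrophil elastase gene, had 0 and 81 counts over the 3 libraries, and Ltf, the lactoferrin gene, 1 and 287, so both passed the count filter only through the group in which they were high. The myeloid integrin gene Itgam rose from 90 to 659 counts (log2 fold change 2.41) and Cd68, a macrophage marker, from 159 to 1008 counts (2.20). Of the 9 markers that did not pass the filter, Mpo and Csf3r each had 0 counts in the controls and 26 with LINC01133, Adgre1 had 0 and 23, and with no count filter these 3 were called higher (adjusted p = 4.6e-05, 4.6e-05 and 0.00013 by edgeR). The leukocyte marker Ptprc had 5 and 18 counts, Camp 16 and 15, Ngp 3 and 8, Cebpe 0 and 4, Retnlg 0 and 2, and the neutrophil surface marker Ly6g 0 and 1. Several myeloid markers thus rose with S100a8 while Ly6g and Retnlg were at or near 0 in both groups. The macrophage and neutrophil lysozyme gene Lyz2 fell, from 1.88 ± 0.465 to 0.129 ± 0.105 CPM, and passed the count filter only through the control group. The part of the myeloid genes in the S100a8 difference was not tested.

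S100a16 (uc008qcx.1; chr3:90537254-90543151, plus strand), a widely expressed member, had 5, 2 and 15 counts in the controls and 15, 36 and 23 counts with LINC01133. The groups overlapped, since control 3 (0.640 CPM) was above LINC01133 library 1 (0.510 CPM). The log2 fold change was 1.27 (SE 0.406, adjusted p = 0.0029 by edgeR). The call was lost without control 2 (0.82, adjusted p = 0.068) and without LINC01133 library 2 (0.97, adjusted p = 0.051), in a range over 15 settings of 4.8e-05 to 0.068; without control 3 the log2 fold change was 2.32. S100a14 (uc008qcv.2; chr3:90526856-90528837, plus strand), found in epithelia, had 2, 1 and 0 counts in the controls and 1, 5 and 4 with LINC01133, a ratio of 2.42 with an exact 95% interval of 0.624 to 13.7 that covers counting error only. A difference was not detectable at this depth (adjusted p = 0.36 with no count filter).

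Per kilobase of transcript, the order of levels in the controls was S100a4 (767.0 ± 39.4 CPM per kb), S100a6 (542.7 ± 42.4), S100a10 (185.9 ± 4.74), S100a11 (83.0 ± 8.27), S100a1 (12.5 ± 1.65), S100a13 (4.19 ± 0.248), S100a8, S100a16, S100a14 and S100a9. Neighbours in this order were separate except for S100a8 and S100a16, and S100a14 and S100a9, whose ranges overlapped. With LINC01133 the order was S100a6, S100a10 (202.7 ± 3.21 CPM per kb), S100a11 (65.8 ± 2.14), S100a4 (61.9 ± 4.59), S100a1, S100a8, S100a13, S100a16, S100a14 and S100a9. There the ranges of S100a11 and S100a4, of S100a8 and S100a13, and of S100a14 and S100a9 overlapped. By this measure S100a4 thus went from first to a place that it shared with S100a11. First place rests on the division by length: in CPM, S100a6 (390.2 ± 30.5) and S100a4 (382.7 ± 19.7) overlapped in the controls.

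The 10 members together took 0.0797, 0.0919 and 0.0895% of all counts in the controls and 0.0461, 0.0450 and 0.0460% with LINC01133. Every control was above every LINC01133 library, and control 1 was the lowest control (0.0870 ± 0.00647% against 0.0457 ± 0.000618%, p = 0.1 by the exact two-sided permutation test, its lowest value here). Without S100a4, the summed level of the other 9 members went from 564.1 ± 35.9 to 389.6 ± 3.77 CPM. Rn45s, the ribosomal RNA precursor, took 25.4 to 27.9% of control counts and 21.0 to 23.0% with LINC01133, and without it in the total the shares were 0.119 ± 0.00709% and 0.0586 ± 0.000233%.

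The make-up of these transcripts, as shares of the summed counts per kb, changed with the fall of S100a4. S100a4 made up 48.1 ± 0.335% in the controls and 9.60 ± 0.711% with LINC01133. The share of S100a6 was 34.0 ± 0.750% and 46.8 ± 1.08%, that of S100a10 was 11.7 ± 0.550% and 31.4 ± 0.437%, and that of S100a11 was 5.20 ± 0.342% and 10.2 ± 0.350%. The shares of S100a6 and S100a11 were higher with LINC01133 although their own levels fell, since shares sum to a fixed total. S100a10 stood at 0.243 ± 0.0105 of S100a4 in counts per kb in the controls and at 3.29 ± 0.220 times S100a4 with LINC01133 (exact two-sided permutation p = 0.1).

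**Figure D3:**
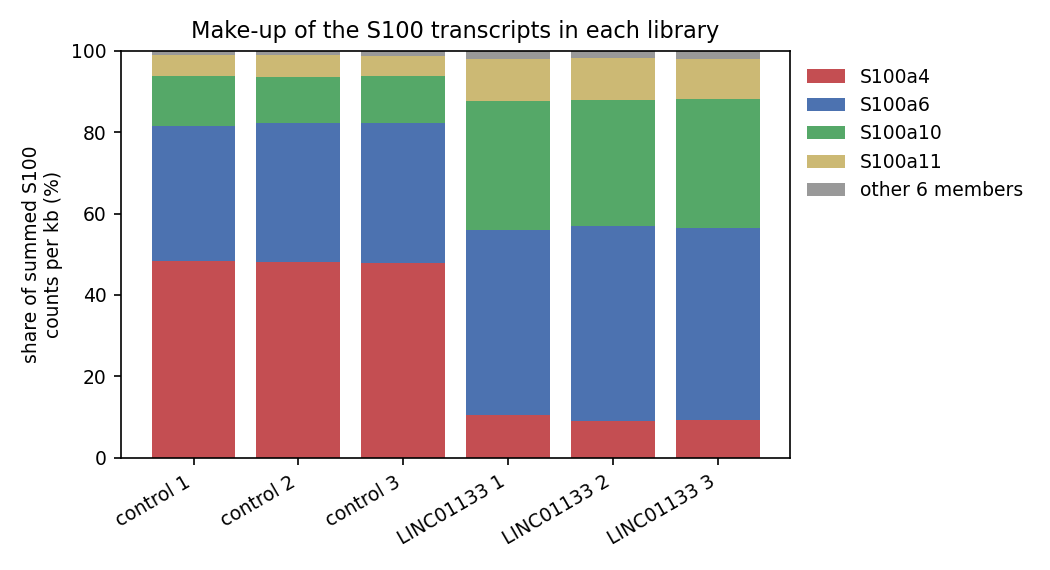
Share of each S100 gene in the summed counts per kb of the 10 members, 1 bar per library. The S100a4 share is 47.8 to 48.4% in the 3 controls and 9.06 to 10.4% in the 3 LINC01133 libraries, while the S100a10 share goes from 11.1 to 12.2% to 31.0 to 31.8%.

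All members lie on mouse chromosome 3, 8 within 184.7 kb and the other 2, S100a11 and S100a10, in a stretch of 44.2 kb further along. Both directions occurred in each stretch. Of the 7 other S100 symbols in the table, 4 lie between members in the first stretch and 3 on other chromosomes, and 2 passed the count filter. S100a7a, a relative of human psoriasin between S100a6 and S100a8 (uc008qdc.1; chr3:90654017-90658669), fell from 19.9, 23.0 and 20.2 CPM to 2.45, 2.56 and 2.93 CPM (adjusted p = 1.3e-58 by edgeR, log2 fold change -2.98, SE 0.101). S100a3, directly before S100a4 (chr3:90560578-90602702), was at 3.36 ± 0.781 and 3.44 ± 0.173 CPM with overlapping groups and was not called (log2 fold change 0.035, SE 0.153, adjusted p = 0.84 by edgeR). S100a5, between S100a4 and S100a6, had 9 and 4 counts over the libraries of a group. The genes on both sides of S100a4 thus had low levels in both groups, and the large falls were at S100a4 and S100a7a, with S100a6 between them falling less.

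**Figure D4:**
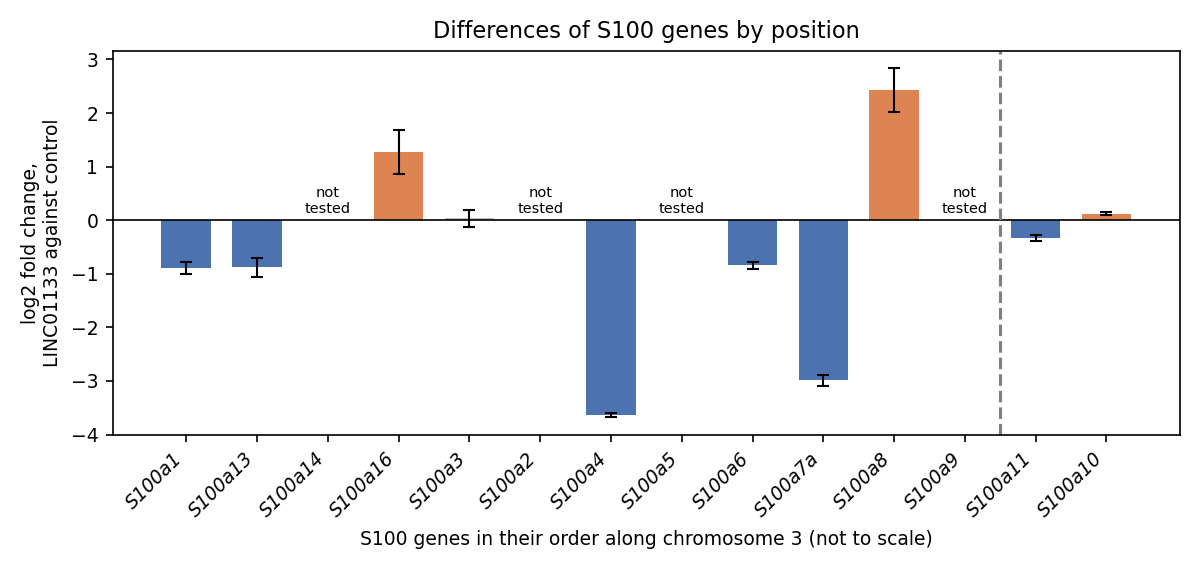
Log2 fold change (LINC01133 against control) of S100 genes in their order along chromosome 3, with bars for tested genes and error bars of 1 SE; the dashed line separates both stretches. Bars in blue fell, bars in orange rose and the grey bar at S100a3 was not called.

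The table held 16 protein-coding genes without an S100 symbol within 250 kb of either stretch. Of these, 8 could be tested, 3 rose and 5 fell, all beside the first stretch. That 8 of 8 were called is close to the 84.9% of all genes. Beyond S100a1 on its far side, Chtop, an mRNA export factor, went from 164.8 ± 1.37 to 93.4 ± 3.09 CPM (log2 fold change -0.82) and Ilf2, an RNA-binding protein gene, from 158.0 ± 4.07 to 75.9 ± 1.52 CPM (-1.06). Dennd4b (-1.57), Gatad2b (-1.01) and Ints3 (-0.29) fell as well, and Slc27a3 rose (0.49). Npr1, a natriuretic peptide receptor gene, rose from 0.167 ± 0.0728 to 1.67 ± 0.493 CPM. Beyond S100a9, Pglyrp4, which encodes a peptidoglycan recognition protein, had no read in the controls and 140 counts with LINC01133, at least 33.9-fold higher when the control group is set to a floor of 3 counts. Npr1 and Pglyrp4 passed the count filter only through the LINC01133 group. Beside the second stretch, the epidermal genes Flg, Hrnr, Rptn, Tchh and Tchhl1 and the genes Tdpoz1 and Tdpoz2 had 0 to 3 counts over a group. Tdpoz4, near the same stretch, had 0 counts in the controls and 7, 12 and 11 with LINC01133, at least 7.27-fold higher by the same floor. It did not pass the count filter and was called with none (adjusted p = 1.1e-05 by edgeR), and reads of the related Tdpoz genes may be shared.

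Tested genes for partners and regulators of S100 proteins went both ways, more of them up than down. Of the 42 partner, receptor, annexin, plasmin and regulator genes listed, 40 were in the table, 29 could be tested, 18 were called higher and 9 lower. That is 27 of 29 called beside 84.9% of all genes (44.5% higher and 40.5% lower), with a median log2 fold change of 0.30 (all genes 0.045). Plau, Fgf1 and Il1a passed the count filter only through the LINC01133 group, in which they were high. Their direction in this count and median is thus bound to the filter. Among partners of S100A4, Myh9, the non-muscle myosin heavy chain, fell from 993.6 ± 4.35 to 790.1 ± 16.8 CPM (log2 fold change -0.33), and Trp53, the tumour suppressor p53, fell from 165.7 ± 2.44 to 34.0 ± 1.43 CPM (-2.29). Cacybp, the partner of S100A6, fell as well (-0.38). The ratio of S100a6 to Cacybp in counts per kb went from 7.74 ± 0.318 to 5.62 ± 0.389 (exact two-sided permutation p = 0.1).

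Among annexins, 8 of the 10 that could be tested rose and 1 fell, and 9 of 10 called is near the 84.9% of all genes (44.5% higher). Anxa2, the partner of S100A10, went from 467.1 ± 12.1 to 576.5 ± 2.15 CPM (log2 fold change 0.30), and the ratio of S100a10 to Anxa2 in counts per kb stayed near 1, at 0.990, 1.01 and 1.09 in the controls, against 0.913, 0.890 and 0.925 with LINC01133, lower in all 3 LINC01133 libraries (exact two-sided permutation p = 0.1). Anxa1, the partner of S100A11, rose (0.26) while S100a11 fell, and their ratio went from 0.729 ± 0.105 to 0.481 ± 0.0240 (exact two-sided permutation p = 0.1). Anxa6, an annexin bound by several S100 proteins, rose from 5.01 ± 0.314 to 88.1 ± 2.13 CPM (4.14), and Anxa4 fell (-0.77). Of the genes for plasmin generation at the cell surface, in which the S100A10 and annexin A2 complex acts, 4 of 5 tested rose and 1 fell, again beside 84.9% of all genes called. The genes that rose included the tissue plasminogen activator gene Plat (3.20), the urokinase gene Plau (8.52) and its receptor gene Plaur (1.59). Plau passed the count filter only through the LINC01133 group. The plasminogen receptor gene Plgrkt fell (-0.35), a call lost by library size alone (-0.10, adjusted p = 0.37 by edgeR).

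Of the listed receptors for released S100 proteins, Tlr4 and Bsg fell, and Ager rose by a call that did not hold in all settings. Tlr4, which binds calprotectin, fell from 34.6 ± 1.51 to 24.0 ± 1.47 CPM (log2 fold change -0.53). Bsg fell from 361.1 ± 4.89 to 285.9 ± 1.69 CPM (-0.34), and Cd36 and Emb did not pass the count filter. Ager, the gene of RAGE, went from 1.26 ± 0.219 to 1.80 ± 0.219 CPM (0.51, adjusted p = 0.035 by edgeR), a call lost without a count filter, by DESeq2, and without control 2, control 3 or LINC01133 library 3 (adjusted p = 0.053, 0.076, 0.11, 0.099 and 0.14). The cargo genes of S100A13 were low and rose, Fgf1 from 7 to 83 counts (3.05) and Il1a from 8 to 59 counts (2.38) over the libraries of a group. Both passed the count filter only through the LINC01133 group. Atp2a2, the calcium pump bound by S100A1, rose (0.83) while S100a1 fell. Of the regulators reported for S100 genes, Stat3, linked to S100a8 and S100a9, rose (0.31), beta-catenin (Ctnnb1), linked to S100a4, rose (0.33), and its partner Tcf7l2 fell (-0.56), while Lef1, Cebpa and Cebpe did not pass the count filter.

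**Figure D5:**
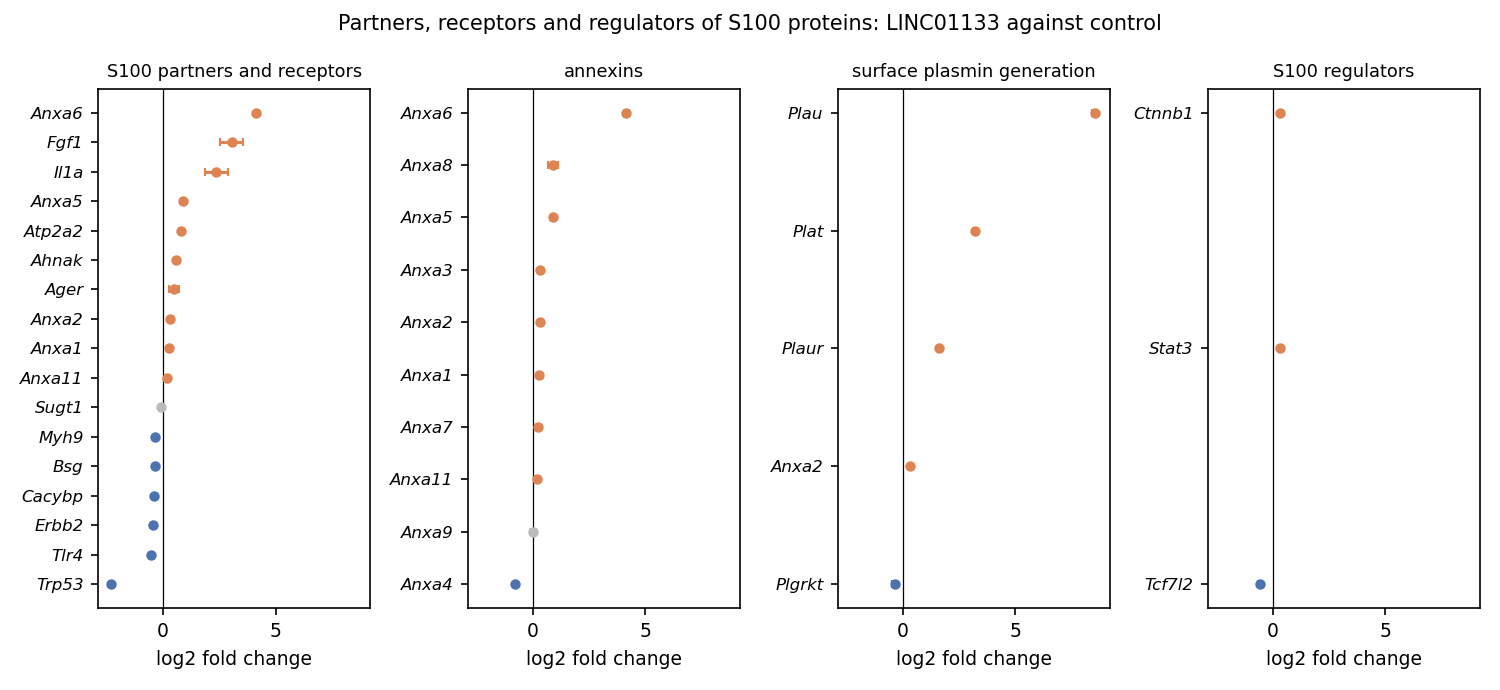
Log2 fold changes (LINC01133 against control, error bars 1 SE) of the tested genes in the lists of partners and receptors, annexins, surface plasmin generation and regulators; orange rose, blue fell, grey was not called. Plau (8.52) and Anxa6 (4.14) lie farthest to the right and Trp53 (-2.29) farthest to the left.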

How the data were processed

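Illumina TruSeq libraries had been made from total RNA of 4T1 cells, per the labels' protocols. Raw whole-number counts per gene were deposited as 1 table, which also gives gene lengths and UCSC identifiers, per the file headers. The submitters' processing notes name mm10 and bcl2fastq. Aligner, counter, annotation and strand setting are not given in these sources, so reads of overlapping genes or near-identical copies may be split or shared. Groups came from the sample titles. Libraries of a group differed by more than sampling noise (chi-square of 1.61 to 2.32 per degree of freedom), so each counted as 1 replicate. The common biological coefficient of variation was 0.0237. Neither value can tell separate cultures from repeat libraries of the same culture.

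Genes were tested with edgeR 4.0.16 in R 4.3.3 (TMM, filterByExpr, robust quasi-likelihood F test, Benjamini-Hochberg over 14116 genes, threshold 0.05). The SE is the log2 fold change divided by the square root of F. On counts simulated from this comparison 82% of 50 genes changed 1.25-fold and 100% of 50 changed 2-fold were recovered. In that simulation all genes had the same biological spread, few genes changed, and the changed ones were drawn from genes with ample counts. The rates thus do not apply to members with low counts, such as S100a8, S100a14 and S100a16. CPM are means ± SD over 3 libraries; single values used exact permutation tests (scipy 1.17.1). Intervals and floors cover counting error only. Levels per kb use the deposited length. Positions are from GENCODE M21 and promoter sequences from RefSeq (GRCm38.p6), the same assembly as mm10. Figures were drawn with matplotlib 3.10.9.

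The members and lists were chosen with earlier results of these data known. All 10 members are named whatever their values; other genes named come from the lists of S100 symbols, partners, annexins, plasmin genes, regulators, neighbours and markers. Not every listed gene is named, and 1 was left out of the lists and their counts and is not reported here. Same-numbered libraries did not deviate together (r = -0.0132, -0.0232 and -0.0179), so no block was used. Alternatives were other scalings, count filters, thresholds, DESeq2 1.42.0, limma voom 3.58.1, dispersions without the robust option, a replicate block and each library left out. LINC01133 itself was not analysed here and does not check the labels.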

Additional observations from a re-analysis of the deposited data

How the results depend on the processing

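Over 16 fits of other scalings, filters, tools and left-out libraries, the 8 tested members kept their direction in every fit that tested them, and S100a4 ranged from -3.69 to -3.39. Lost calls were S100a11 by library size alone and S100a16 without control 2 or LINC01133 library 2. By library size alone 65.0% of all calls were higher, against 52.4%. The replicate block gave 3 higher and 5 lower members, 18 and 9 partner genes and 3 and 5 neighbours, as without it; the paired sign-flip test of the summed share (difference -0.0413 points) gave an exact p = 0.25, the smallest 3 pairs allow. With an added 2-fold limit, which is stricter by construction, 1 member was lower, 6 partners were higher and 1 lower, and 3 neighbours were lower. Leaving out 1 library gave 2 to 3 higher and in each case 5 lower members, 17 to 18 higher and 9 to 10 lower partners, and a summed share difference of -0.04495 to -0.0388 points. That difference, -0.0413 points, was -0.0640 without the 10 highest rows in the total, -0.0602 without Rn45s, and -526.3 as summed CPM; both smaller totals and the CPM unit are changes by construction. Without division by length, the shares of S100a4 were 40.4 and 7.34%, of S100a6 41.2 and 51.6%, and of S100a10 12.8% in the controls. Genes not called changed sign: S100a3 with a library left out (-0.125 to 0.21), Anxa9 with no count filter (-0.00299) or a library left out (-0.0498 to 0.113), and Sugt1 by library size alone (0.18, called) and upper quartile (0.032). Leaving out the Rn45s row was chosen after seeing the data and changed no member's call. Depth limits S100a9 and S100a14, with at most 10 counts over a group.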

Other observations

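S100 genes outside chromosome 3 were near the limit of detection. S100b, a marker of glia and Schwann cells, had 25 counts over the controls and 12 with LINC01133, S100g, a calcium buffer of the gut, 8 and 5, and S100z had none. S100a2 had 2 and 13 counts, a ratio of 4.73 with an exact 95% interval of 1.07 to 43.1, and lies within the span of S100a3 in the annotation. In the fit with no count filter, S100b was called lower (log2 fold change -1.50, adjusted p = 0.027 by edgeR) although its groups overlapped, and S100a2 was not called (adjusted p = 0.099).

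Among the described members only, without the other S100 symbols, likeness of pattern was measured on log2(CPM + 0.5) values. Each gene's mean over the 6 libraries was subtracted first. The level still enters, because the added 0.5 shrinks the differences of members at low CPM. The closest pair was S100a9 and S100a10 (0.126), of which S100a9 had 2 counts in all. The member closest to S100a13 was S100a1 (Euclidean distance 0.306), and S100a1 and S100a6 were closest to each other (0.301). S100a4 had no near gene among the described members, its closest being S100a6 at 3.40. S100a7a was left out of these distances, so its likeness to S100a4 was not tested. It fell almost as much as S100a4 (log2 fold change -2.985 against -3.637).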
